A study of Homo sapiens with 6 samples.

Results

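The guanylate-binding protein genes GBP1, GBP2, GBP3, GBP4 and GBP5 were examined in BT-549 cells, a human triple-negative breast cancer line, after silencing of the transcription factor IRF1. The 5 genes were taken by symbol from the 37887 rows of the deposited count table, and each was listed once. RNA was sequenced from 3 control libraries, treated with 0.1% DMSO as vehicle, and 3 shIRF1 libraries, treated with 500 ng/ml doxycycline (DOX) to induce an IRF1 short hairpin RNA. The sample titles name a control shRNA, whereas the series description names only cells with the inducible IRF1 hairpin, so the vector carried by the controls is not settled by the labels. DOX was given to every shIRF1 library and to no control, and the effects of the drug and the hairpin cannot be told apart. A single hairpin was used in a single cell line, and the triplicates were cultures of that line, so p-values measure the spread between these cultures.

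Guanylate-binding proteins (GBPs) are large GTPases of the dynamin superfamily that interferons (IFN) induce in many cell types. IFN gamma acts on genes through gamma-activated sequences (GAS) and through IRF1, which binds the IFN-stimulated response element (ISRE). GBP1, the founding member, coats bacteria and pathogen vacuoles and recruits the other members. GBP1 carries a farnesyl group, and GBP2 and GBP5 carry geranylgeranyl groups, lipids that fix these proteins to membranes, whereas GBP3 and GBP4 have no such tail.

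The human genes lie in a single cluster on chromosome 1, and all 5 are transcribed from the minus strand. In GENCODE release 29 (GRCh38), the positions were chr1:89006666-89022894 for GBP3, chr1:89052319-89065360 for GBP1, chr1:89106132-89150456 for GBP2, chr1:89181148-89198932 for GBP4 and chr1:89258950-89272804 for GBP5. The start-site windows of RefSeq (GRCh38.p14), which run from 250 bases before to 50 bases after each start, were searched on both strands for the ISRE core, GAAA followed after any 2 bases by GAAA, and for the GAS pattern TTCNNNGAA. Windows of GBP1, GBP3 and GBP4 were searched, and those of GBP2 and GBP5 were not analysed here. The ISRE core was present in all 3 and in neither the GBP6 nor the GBP7 window, beside 4.38% of the 27305 genes with a window, 4.01% of the 12425 tested genes with one and 12.98% of the 547 that fell over 2-fold. These shares count GBP1, GBP3 and GBP4 themselves. GBP2 and GBP5, whose windows were not analysed, were the members that fell least. The motif can therefore not be set against the size of the fall within the 5 genes. The 30 bases around each match are shown because they hold the only ISRE core of each window, written along the gene's own strand with the match in capitals, which reads as the reverse complement of the pattern.
GBP1: aacgaagtacTTTCAGTTTCatattactct
GBP3: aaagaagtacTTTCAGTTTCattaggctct
GBP4: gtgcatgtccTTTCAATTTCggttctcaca
These stretches are chr1:89065316-89065345 for GBP1, chr1:89022845-89022874 for GBP3 and chr1:89198927-89198956 for GBP4. With the start site as base 0, the match ran from base -127 to -118 in GBP1, from 2 to 11 in GBP3 and from -4 to 5 in GBP4. The most upstream GBP1 start in GENCODE lies 152 bases before the RefSeq start, so the distance from the start depends on the transcript model. The GBP1 and GBP3 windows shared an unbroken run of 19 bases, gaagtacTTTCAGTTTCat, which spans the ISRE core of both genes. The GBP3 window also held a GAS match, TTCCTTGAA, from base -15 to -7, clear of the ISRE core, and the GAS pattern was found in 9.38% of all windows. No GAS match was present in the GBP1 or GBP4 window, which says only that these letters are not in it.

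Total counts ran from 55143808 to 160436234 per library, and shIRF1 replicate 2 was the least deeply sequenced. A gene was called detected in a library at 3 or more counts, a floor between 0.0182 and 0.0540 CPM (counts scaled to a common library total, here with TMM factors). Such floors cover counting error only. The line's mesenchymal markers VIM, CDH2, ZEB1 and FN1 summed to between 1936 and 2047 CPM in controls and between 1514 and 1616 CPM in shIRF1 libraries, whereas ESR1, PGR and CDH1 together stayed between 0.746 and 1.06 CPM. Leukocytes also express GBPs, and the 4 leukocyte markers PTPRC, CD3E, CD14 and CSF1R summed to 2.81 to 3.21 CPM in controls and 3.55 to 4.32 CPM in shIRF1 libraries. CD3E had 1 count in all 6 libraries together, and CD14 was the single marker of this list to pass the test, at a log2 fold change of 1.003 ± 0.150 (SE). The 3 endothelial markers (PECAM1, VWF, CDH5) did not exceed 0.253 CPM in sum.

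The target of the hairpin, IRF1, gave 45.3, 48.1 and 51.5 CPM in the 3 control replicates, against 13.8, 14.9 and 14.6 CPM after silencing. The groups did not overlap, and 29.9% of the control level remained, a log2 fold change of -1.74 ± 0.06 (SE).

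All 5 GBPs were detected in all 6 libraries, and all 5 fell after IRF1 silencing, at the threshold used for every call, a Benjamini-Hochberg adjusted p under 0.05 over 18851 genes in edgeR. Of all genes tested, 26.5% were called lower and 24.2% higher by the same rule. GBP3, GBP4, GBP1 and GBP5 fell over 2-fold, which 4.41% of genes did (3.41% rose as far), and GBP2 fell by less. In each of the 5 genes every shIRF1 library lay below every control library, as was so for 29.5% of genes tested (27.3% in the opposite direction). The median log2 fold change of the 5 genes was -3.26, beside -0.0024 for all genes tested. Less RNA per cell and fewer cells expressing a gene cannot be told apart in these bulk libraries.

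**Figure D1:**
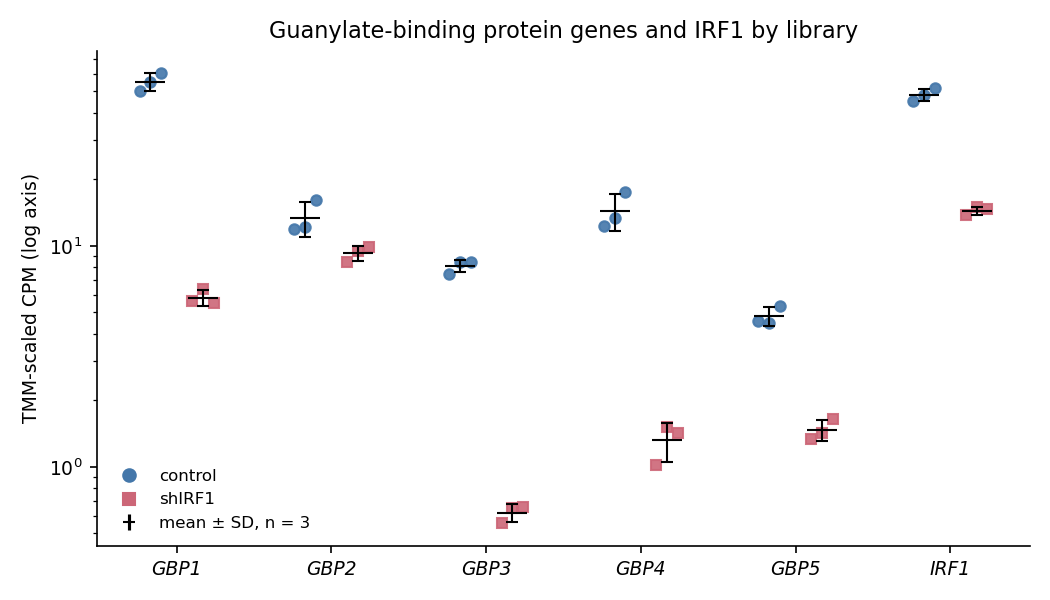
TMM-scaled CPM on a log axis of GBP1 to GBP5 and IRF1 in the 3 control (circles) and 3 shIRF1 (squares) libraries, with black bars for the mean ± SD (n = 3). GBP1 drops from 55.2 to 5.83 CPM and passes below GBP2, which goes from 13.4 to 9.28 CPM, and no gene shown has overlapping groups.

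GBP1 was counted 6167, 6769 and 8997 times in control replicates 1 to 3 and 706, 353 and 908 times in shIRF1 replicates 1 to 3. On the CPM scale this was 50.04, 55.2 and 60.3 in controls against 5.60, 6.36 and 5.52 in shIRF1 libraries. The control libraries were thus far above the shIRF1 libraries, and the gap was many times the spread within either group. Mean GBP1 was 55.2 ± 5.15 CPM in controls and 5.83 ± 0.464 CPM in shIRF1 libraries (SD, n = 3 each), so 10.6% of the transcript remained. This gave a log2 fold change of -3.26 ± 0.07 (SE), with a 95% interval from -3.41 to -3.10 and an adjusted p of 4.80e-20 by edgeR. Of the 18851 genes tested, GBP1 had rank 52 from the most strongly lowered.

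GBP3, the member most like GBP1 in sequence, had 923, 1030 and 1256 counts in control replicates 1 to 3 and 70, 36 and 108 counts in shIRF1 replicates 1 to 3. Its level was 7.49, 8.41 and 8.42 CPM in controls and 0.556, 0.649 and 0.656 CPM in shIRF1 libraries. Both groups were tight and clearly apart. GBP3 fell to 7.65% of control, the lowest remaining share among the 5 genes, with a log2 fold change of -3.71 ± 0.12 (SE), a 95% interval from -3.96 to -3.47 and an adjusted p of 3.02e-18 by edgeR. It had rank 31.

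GBP4, a member without a lipid tail that is longer than GBP1, reached 12.3, 13.4 and 17.5 CPM in the 3 control replicates. In shIRF1 replicates 1 to 3 it was at 1.02, 1.51 and 1.42 CPM, from 128, 84 and 233 counts. Control replicate 3 was the highest library and shIRF1 replicate 1 the lowest, and the groups were again widely separated. The group means were 14.4 ± 2.71 CPM and 1.31 ± 0.264 CPM (SD, n = 3 each), which left 9.13% of the transcript. Its log2 fold change of -3.48 ± 0.17 (SE) had a 95% interval from -3.87 to -3.09, with an adjusted p of 5.92e-08 by edgeR and rank 41.

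GBP5, which is prenylated and has been described as a partner of the NLRP3 inflammasome and, with GBP2, as an inhibitor of the protease furin, gave 4.57, 4.47 and 5.34 CPM in the 3 control replicates. The 3 shIRF1 replicates gave 1.34, 1.42 and 1.65 CPM. All shIRF1 libraries were lower, but a larger part of the transcript was left than for GBP1, GBP3 and GBP4. GBP5 fell to 30.7% of control, with a log2 fold change of -1.69 ± 0.12 (SE), a 95% interval from -1.95 to -1.44 and an adjusted p of 1.37e-11 by edgeR. The members were also set against IRF1, a measure that was not planned beforehand. Per 100 IRF1 counts of the same library, GBP5 had 9.91 ± 0.557 counts in controls and 10.2 ± 0.951 counts in shIRF1 libraries (SD, n = 3 each), values that overlapped. By the same measure GBP1 went from 114 ± 3.31 to 40.3 ± 2.42 counts and GBP2 from 27.6 ± 3.22 to 64.2 ± 3.10 counts. GBP3 went from 16.8 ± 0.593 to 4.29 ± 0.233 counts and GBP4 from 29.7 ± 3.67 to 9.07 ± 1.48 counts.

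GBP2 changed least. The 3 control replicates gave 11.9, 12.2 and 16.1 CPM, and the 3 shIRF1 replicates 8.47, 9.49 and 9.87 CPM. The groups did not overlap, yet the lowest control library was close to the highest shIRF1 library. The means were 13.4 ± 2.37 CPM in controls and 9.28 ± 0.727 CPM in shIRF1 libraries (SD, n = 3 each), so 69.4% of the transcript remained. On the log2 scale GBP2 was at -0.53 ± 0.11 (SE), with a 95% interval from -0.76 to -0.30 and an adjusted p of 6.58e-04 by edgeR. There were 13.9% of tested genes with a lower log2 fold change than GBP2. Control replicate 3 carried part of this difference, since without it the GBP2 log2 fold change was -0.37. The same library was the highest control for 5 of the 5 members, and shIRF1 replicate 1 was the lowest shIRF1 library for 4 of the 5. IRF1 had its extremes in the same 2 libraries. How many of all genes did so was not counted, so this order is not shown to be particular to the GBPs.

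**Figure D2:**
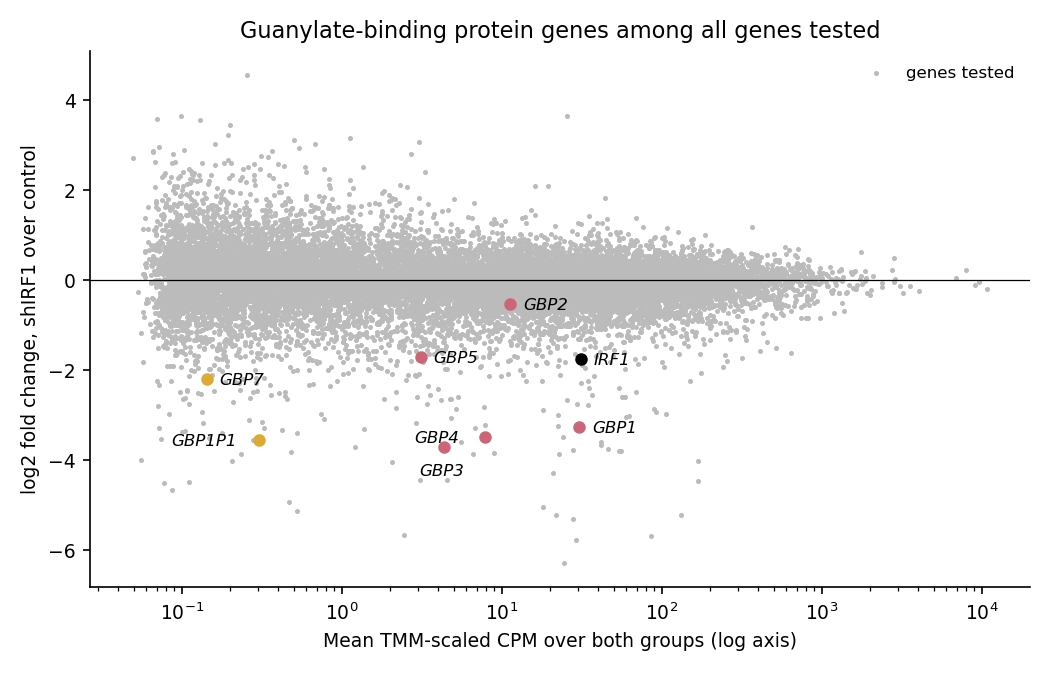
Log2 fold change of shIRF1 over control against mean TMM-scaled CPM (log axis) for the 18851 genes tested (grey), with the 5 members in red, IRF1 in black, and GBP7 and GBP1P1 in yellow. GBP1, GBP3 and GBP4 lie among the most lowered genes at their abundance, GBP5 lies at the level of IRF1, and GBP2 has 13.9% of genes tested below it. GBP7 and GBP1P1 are plotted although they passed the filter through the control libraries alone.

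The members were then compared with each other inside each library, where scaling cancels. For the 10 pairs of members, the log2 ratio of counts was set between the groups in an exact two-sided permutation test, in which 3 against 3 libraries cannot go below p = 0.1. The ratio of GBP1 to GBP2 was 2.08, 2.18 and 1.91 on the log2 scale in controls and -0.60, -0.58 and -0.84 in shIRF1 libraries. It thus changed sign, with a shift of -2.73 (exact p = 0.1, 0.125 after adjustment over the 10 pairs). The ratio of GBP2 to GBP3 shifted by 3.18, and that of GBP2 to GBP4 by 2.94, with no overlap in either (exact p = 0.1 for both). GBP5 also parted from the strongly lowered genes, as the ratio of GBP1 to GBP5 shifted by -1.54, of GBP3 to GBP5 by -1.997 and of GBP4 to GBP5 by -1.75, and the ratio of GBP2 to GBP5 by 1.19, again with no overlap (exact p = 0.1 for each).

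Among the 3 strongly lowered genes, the ratios moved less. The ratio of GBP1 to GBP3 went from 2.77 ± 0.07 to 3.22 ± 0.14 (log2, SD, n = 3 each), without overlap (exact p = 0.1). GBP3 thus fell further than GBP1 in these libraries. GBP1 to GBP4 shifted by 0.21 (exact p = 0.4) and GBP3 to GBP4 by -0.25 (exact p = 0.2), and in both the groups overlapped. With 3 libraries a side these overlapping ratios do not show that GBP4 fell to the same degree as GBP1 or GBP3.

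Through these unequal changes the makeup of the GBP counts turned over. The 5 genes summed to 95.9 ± 10.9 CPM in controls and 18.5 ± 1.33 CPM in shIRF1 libraries (SD, n = 3 each). The share of GBP2 in these counts rose from between 12.98% and 14.9% in controls to between 48.8% and 51.7% in shIRF1 libraries, and that of GBP5 from between 4.77% and 5.29% to between 7.32% and 8.62%. GBP1 gave 56.0% to 59.0% of the counts in controls and 28.9% to 33.0% in shIRF1 libraries. GBP3 went from at least 7.82% to at most 3.43%, and GBP4 from at least 14.3% to at most 7.78%. No share overlapped between the groups, but the shares are parts of the same sum and depend on one another. GBP2 and GBP5 gained share although both fell in CPM.

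**Figure D3:**
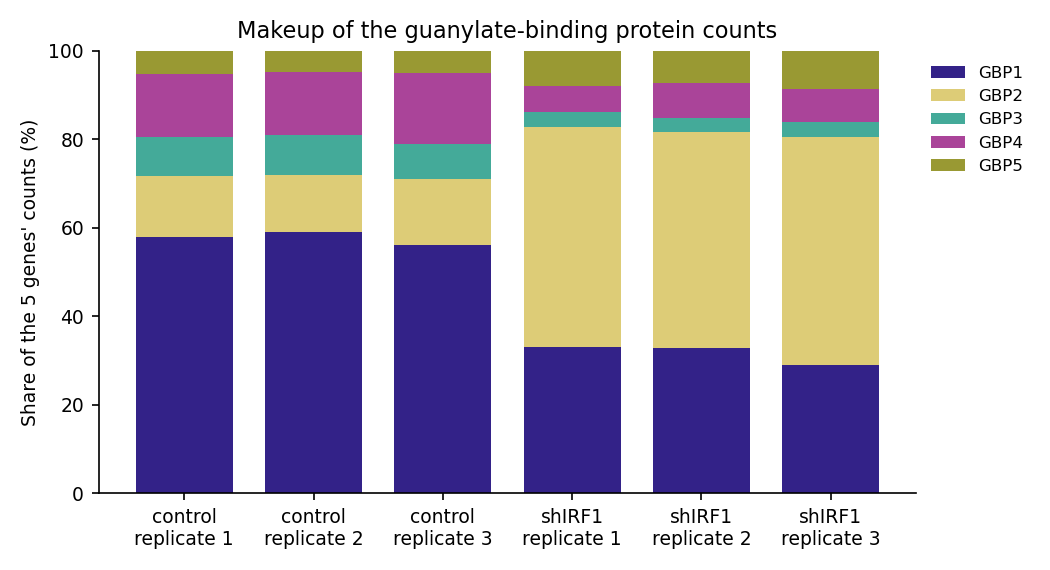
Share (%) of the summed counts of GBP1 to GBP5 taken by each gene, as stacked bars adding to 100% in each of the 6 libraries. GBP1 holds the widest band in the 3 control libraries (56.0% to 59.0%) and GBP2 in the 3 shIRF1 libraries (48.8% to 51.7%).

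Levels of different genes were compared per kilobase of exon. In controls GBP1 was at 11.1 ± 1.03 CPM per kilobase (SD, n = 3), followed by GBP4 at 2.35 ± 0.442, GBP2 at 2.13 ± 0.377 and GBP3 at 1.89 ± 0.124, and then GBP5 at 0.589 ± 0.0583. The GBP2 values overlapped those of both GBP4 and GBP3, whereas GBP4 lay above GBP3 in every control library. In shIRF1 libraries GBP2 was highest, at 1.48 ± 0.116 CPM per kilobase, above GBP1 at 1.17 ± 0.0929 with no overlap. GBP4 (0.215 ± 0.0430) and GBP5 (0.181 ± 0.0194) overlapped, and GBP3 was lowest at 0.144 ± 0.0130. These lengths join all exons of a gene, and some exons come from partial transcripts. With the length of the protein-coding transcript alone, an alternative chosen after seeing the data, the order below GBP1 (18.2 CPM per kilobase) in controls became GBP2 (6.02), GBP3 (2.64), GBP5 (2.38) and GBP4 (2.35). GBP3 was then above GBP4 in 2 of the 3 control replicates, and GBP5 was no longer lowest. In shIRF1 libraries GBP2 remained highest (4.18), but GBP5 (0.731) stood above GBP4 (0.215) and GBP3 (0.202).

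The cluster's other loci were few in reads. GBP7 was counted 18, 30 and 48 times in control replicates 1 to 3 and 9, 2 and 7 times in shIRF1 replicates 1 to 3. GBP1P1, a transcribed pseudogene on the plus strand beyond GBP6, was counted 60, 59 and 104 times against 4, 4 and 8 times. GBP7 and GBP1P1 passed the filter on low counts through the control libraries alone, so their tests were tilted towards a fall and no call is drawn from them. GBP6 had 0, 4 and 6 counts in controls and 2, 1 and 0 counts in shIRF1 libraries, did not pass that filter, and was not tested.

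Counts of close relatives can be split between genes, and how multiply mapped reads were treated is not given in the sources used here. Over 1770 aligned coding bases, GBP1 and GBP3 were 91.6% identical. GBP1 and GBP2 were 82.4% identical, and GBP4 and GBP7 86.5% identical over 1868 bases. When the GENCODE transcripts of the family were divided into windows of 50 bases, 9.62% of the GBP1 windows, 10.2% of GBP2, 4.40% of GBP3, 0.309% of GBP4 and 0% of GBP5 were also found in another family gene. GBP1P1 shared 16.6% of its windows, mostly with GBP1, and GBP7 shared 24.0%, mostly with GBP2. A long GBP2 transcript overlaps GBP7 on the same strand, with 621 exon bases in common, which is 9.89% of the GBP2 exons and 25.3% of the GBP7 exons. An antisense gene crosses 3.98% of the GBP5 exon bases, and another crosses 2.25% of the GBP4 exon bases. A small RNA gene on the same strand overlaps 1.54% of the GBP3 exon bases. The values of GBP1 to GBP5, GBP7 and GBP1P1 are uncertain for these reasons. Such shares do not bound the error of a count, least of all for GBP1P1 and GBP7. These had far fewer reads than GBP1 and GBP2, with which they share most.

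The genes on both sides of the cluster were examined with the same test. On the side of GBP3, PKN2, a protein kinase, was at 0.01 ± 0.04 (log2 fold change ± SE) and RBMXL1, an RNA-binding protein gene, at -0.02 ± 0.05, and neither passed the threshold. GTF2B, the general transcription factor TFIIB, rose by 0.30 ± 0.06 and KYAT3, a kynurenine aminotransferase, by 0.23 ± 0.08. On the side of GBP5 and GBP6, the volume-regulated anion channel subunits LRRC8B, LRRC8C and LRRC8D fell, at -0.90 ± 0.07, -0.42 ± 0.07 and -0.44 ± 0.05. ZNF326, beyond them, was at 0.04 ± 0.05 and did not pass. Of the 8 flanking genes, 3 were thus called lower and 2 higher, beside 26.5% and 24.2% of all genes tested, with a median of -0.0067, and none changed over 2-fold. The KYAT3 call was lost without control replicate 2 (0.16) and without shIRF1 replicate 2 (0.17). The values of RBMXL1, PKN2 and ZNF326 changed sign in some of the alternatives.

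**Figure D4:**
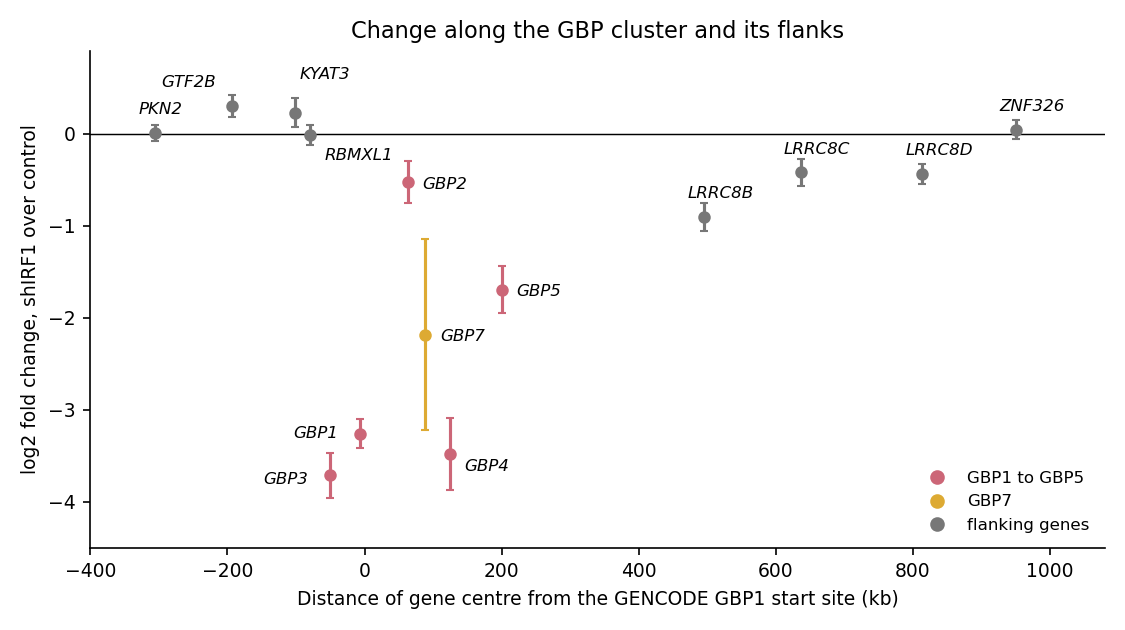
Log2 fold change of shIRF1 over control with its 95% interval for genes along the cluster, placed by the distance in kb of the gene's centre from the start of GBP1. GBP3, GBP1 and GBP4 lie below -3, GBP2 at -0.53 sits between them, and the flanking genes (grey) lie between -0.90 and 0.30. GBP7 (yellow, -2.18) is plotted although it passed the filter through the control libraries alone.

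Regulators upstream of the GBPs were assessed as a list of 14 genes of IFN gamma signalling, of which 13 were tested and IRF8 had 0 counts in all libraries. With IRF1 itself among them, 7 were called lower and 4 higher, beside 26.5% and 24.2% of all genes, and the list had a median of -0.21. STAT2 and IRF9, subunits of the complex that binds the ISRE in the type I IFN response, both fell. STAT2 was at 64.1 CPM in controls and 31.9 CPM in shIRF1 libraries (log2 fold change -1.01 ± 0.06, SE), and IRF9 at 4.69 CPM and 1.71 CPM (-1.43 ± 0.12). Their part in the fall of the GBPs was not tested.

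Of 16 other dynamin superfamily GTPases, 6 were called lower and 5 higher, beside 26.5% and 24.2% of all genes tested, and the median was 0.0014. EHD2, which stabilises caveolae, fell by 0.73 ± 0.05 on the log2 scale, and MX2, an IFN-induced antiviral GTPase, fell by 0.66 ± 0.07. MFN1, a mitochondrial fusion GTPase, rose by 0.38 ± 0.04. MX1, which falls outside the naming rule and was chosen after its value was seen, was the sole member of this list to change over 2-fold, at -5.22 ± 0.28. Of 4 immunity-related and giant GTPase loci, 2 were tested. IRGQ rose by 0.25 ± 0.05, IRGM was at -0.83 ± 0.38 and did not pass, IRGC had at most 2 counts in a library, and GVINP1 had 0.

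Enzymes that process prenylated proteins changed little. Of 6 genes, 3 were called lower and 0 higher (0 also at an unadjusted p under 0.05), beside 26.5% and 24.2% of all genes tested, with a median of -0.11. ICMT, the methyltransferase of prenylated cysteines, fell by 0.22 ± 0.04 on the log2 scale, ZMPSTE24, a zinc protease, by 0.19 ± 0.04 and PGGT1B, a subunit of the enzyme that adds geranylgeranyl groups, by 0.15 ± 0.05. The PGGT1B call was lost without control replicate 2 (-0.12), without shIRF1 replicate 3 (-0.13), and under upper quartile scaling (-0.11) or library size only (-0.099).

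Of 10 inflammasome genes, 8 were tested. CASP1 and PYCARD passed the filter on low counts through the control libraries alone, and no call is drawn from them. Of the other 6, 2 were called lower and 1 higher, beside 26.5% and 24.2% of all genes tested. CASP1, the inflammasome protease, was counted 100, 103 and 160 times in control replicates 1 to 3 and 4, 2 and 4 times in shIRF1 replicates 1 to 3. PYCARD, the adaptor ASC, was counted 22, 21 and 15 times against 6, 2 and 12 times, and was named after its values were seen. GSDMD, the pore-forming protein cleaved by inflammatory caspases, fell by 0.88 ± 0.08, and CASP4, the caspase that senses lipopolysaccharide on GBP-coated bacteria, fell by 0.57 ± 0.07. The gene called higher, chosen after its value was seen, was NLRC4 (1.26 ± 0.20), the adaptor of the NAIP inflammasome.

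Of 10 partners of GBP1, GBP2 or GBP5, 4 were called lower and 1 higher, beside 26.5% and 24.2% of all genes tested, with a median of -0.13. The number called higher was between 1 and 3 over the alternatives. RNF213, a ubiquitin ligase that also coats bacteria, fell from 111 to 73.3 CPM (-0.60 ± 0.05). YWHAQ, a 14-3-3 protein of the family that holds phosphorylated GBP1 in the cytosol, fell by 0.27 ± 0.04, and FURIN rose by 0.39 ± 0.07.

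**Figure D5:**
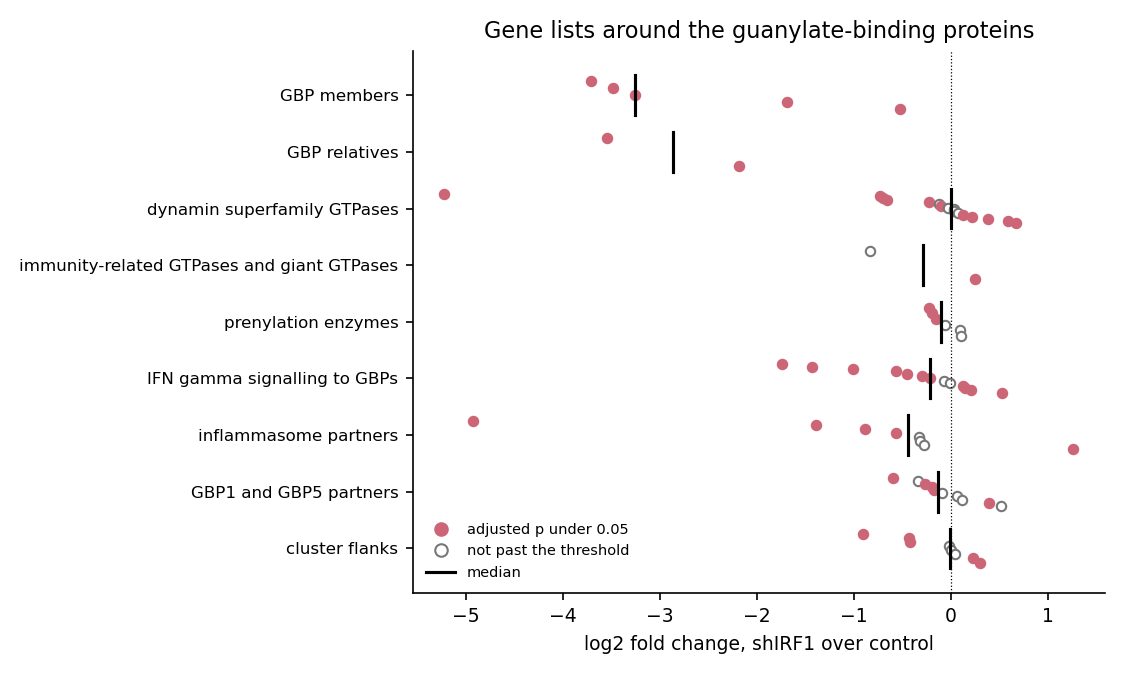
Log2 fold change of shIRF1 over control for every tested gene of the 9 lists, with filled points at an adjusted p under 0.05 in edgeR, open points otherwise, and a black bar at the median. The median of the 5 GBPs lies at -3.26. GBP7, GBP1P1, CASP1 and PYCARD are plotted although they passed the filter through the control libraries alone.

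The genes with the profile most like that of each member were sought among 13061 tested genes whose mean reached 1 CPM. Likeness was the root mean square difference between log2 CPM profiles over the 6 libraries, each centred on its own mean, and since group dominates such profiles it is a description only. The nearest to GBP1 were UBE2L6, the E2 enzyme of ISG15 conjugation (difference 0.0855), PARP10 (0.111) and the metalloprotease gene ADAM19 (0.137). The nearest to GBP3 were HERC6 (0.0947), SAMD9 (0.0951) and IFI44 (0.0999), and to GBP4 IFIH1, the double-stranded RNA sensor MDA5 (0.0435), IFIT1 (0.126) and USP18 (0.131). Nearest to GBP5 were BTN3A3 (0.0514), SSC5D (0.0549) and the collagen gene COL15A1 (0.0705). GBP2 was nearest to ZNF385B (0.0492), MGP (0.0568) and the protocadherin PCDH1 (0.0615), whose log2 fold changes were -0.54, -0.54 and -0.51.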

How the data were processed

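The deposited values were counts per gene symbol for 6 libraries, made by the authors from poly(A)-selected RNA with a stranded kit and not normalized. The submitters' processing notes name CASAVA 1.8.2, STAR 2.7.9a, featureCounts, DESeq2 1.24.0 and GRCh38.p7. The annotation release, strand setting and handling of multiply mapped reads are not given in the sources used here. Between 72.1% and 75.2% of counts from 2 to 11 were even, as when both mates of a pair are counted, so halved counts were an alternative.

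All counts were fitted with edgeR 4.0.16 (R 4.3.3; TMM, filterByExpr with a minimum count of 10, robust quasi-likelihood test, group as factor, Benjamini-Hochberg adjustment over 18851 genes), which was tested on simulated data. CPM is TMM-scaled, and the SE of a log2 fold change is its size over the square root of F. The alternatives were DESeq2 1.42.0, other scalings and filters, each library left out, a replicate block, halved counts, thinning to the smallest total, a threshold of 0.01, and glmTreat. Members and lists were chosen with earlier results of these data known, so lists carry no set test. Genes were named by rule: members, IRF1, the other GBP loci, the flanking genes, the 3 smallest adjusted p per list, and the 3 nearest profiles per member. RefSeq start-site windows and GENCODE release 29 supplied sequences and lengths. Symbols were matched as listed. Some listed genes are not reported here and were left out of the list counts.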

Additional observations from a re-analysis of the deposited data

How the results depend on the processing

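All 5 GBPs were called lower, and 4 of them over 2-fold, under every alternative that called at 0.05 or 0.01 without testing against a fold. Under glmTreat against a 2-fold change the same counts were 4 and 4. Over 15 alternatives, the log2 fold changes ran from -3.33 to -3.18 for GBP1, -0.61 to -0.37 for GBP2, -3.78 to -3.53 for GBP3, -3.58 to -3.31 for GBP4 and -1.80 to -1.60 for GBP5, with the largest adjusted p over these edgeR and DESeq2 fits at 0.00847, for GBP2. Over all genes tested, the replicate numbers did not pair the libraries (correlations of deviations 0.0137, 0.0250 and -0.0072). With the replicate block the values were -3.25, -0.52, -3.71, -3.49 and -1.71 in the same order, with no call of a member changed. The adjusted p by edgeR was smaller with the block for every member. It went from 5.92e-08 to 4.43e-21 for GBP4 and from 6.58e-04 to 2.13e-06 for GBP2. Under the filter of at least 1 CPM in 3 samples, 219 genes were called higher and 523 lower over 2-fold (642 and 831 in the main fit), GBP7 and GBP1P1 were not tested (0 called), and 2 inflammasome genes were called lower. Of the 10 GBP partners, 3 were called higher under upper quartile scaling and under library size only, and 2 under the 1 CPM filter and with halved counts. GBP7 was not tested with halved counts either, and no call is drawn from GBP7 or GBP1P1. Across fits without 1 library, the partners called higher were 1 to 2 and the flanking genes called higher 1 to 2. RBMXL1 changed sign under upper quartile scaling (0.025), library size only (0.032), the 1 CPM filter (0.0052) and thinning (0.019), and, over fits without 1 library, PKN2 ran from -0.018 (without control replicate 3; -0.0078 without shIRF1 replicate 2) to 0.022 and ZNF326 from -0.011 (without control replicate 3) to 0.087. The cause was not tested.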
